A study of Mus musculus with 18 samples.

Results

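The genes described here are the enzymes and regulators of hepatic de novo lipogenesis, the synthesis of fatty acids and triglycerides from sugar-derived carbon. They are 10 genes chosen by name (Srebf1, Mlxipl, Fasn, Acaca, Acly, Scd1, Elovl6, Dgat2, Gpam and Me1) out of 21884 protein-coding genes of the GENCODE vM21 annotation (mouse build mm10, GRCm38). For each, the gene body plus 50 kb on both sides formed a window, and the window was intersected with 6 lists of regions called from ChIP-Seq of mouse liver. Lamin B1, a protein of the nuclear lamina, and H3K9me3, a histone mark of heterochromatin, were profiled in male C57BL/6 livers at 3 months (young) and 21 months (old), with 2 livers at each age for either antibody. The pioneer factor Foxa2 was profiled at 12 weeks in wild-type (WT) controls and in their male Zmpste24 KO littermates, also labelled C57BL/6, with 3 replicates per genotype. The Zmpste24 enzyme cleaves the precursor of lamin A during its maturation, and its loss throughout the animal is a model of progeroid laminopathy rather than of ageing itself. The lamin B1 and H3K9me3 lists thus come from other mice than the Foxa2 lists, and lamin B1 was not profiled in the Zmpste24 KO livers in these lists.

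In the liver, insulin acts on lipogenesis through SREBP-1c, encoded by Srebf1, and glucose acts through ChREBP, encoded by Mlxipl. Citrate exported from mitochondria is cleaved to acetyl-CoA by ATP citrate lyase (Acly), carboxylated to malonyl-CoA by acetyl-CoA carboxylase 1 (Acaca) and built into palmitate by fatty acid synthase (Fasn), with NADPH supplied in part by malic enzyme 1 (Me1). Palmitate is elongated by Elovl6 and desaturated by stearoyl-CoA desaturase 1 (Scd1), and the fatty acids are esterified to triglycerides by enzymes that include Gpam, at the first acylation of glycerol phosphate, and Dgat2, at the last. Domains bound by lamin B1 at the nuclear envelope are usually poor in active genes, and H3K9me3 often lies within them.

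The replicates of each condition had been merged before regions were called, and the lists give positions without signal, score or depth. A region is therefore called or not called, no spread between replicates is known, and no test between conditions could be made. Each count of lipogenic genes under the main settings is set beside the share of all protein-coding genes with the same call. The number of H3K9me3 regions in both lists differs from the number the study describes, and the age of each list is known from its name alone. As a check of the tissue, Foxa2 sites were looked up at 5 hepatocyte genes (Alb, Apoa1, Tat, Cps1 and Hnf4a). Of these, 5 had a WT site (30.5% of all genes) and 4 a Zmpste24 KO site (38.5%) in their windows.

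Foxa2 sites that hold the forkhead core TGTTTAC, a word bound by Fox proteins, are printed first, since a called site and this exact word coincide there. Further sites in these windows hold only variants of the core, which are counted below. Each stretch is 120 bases of the plus strand of GRCm38.p6, written 5′ to 3′, with the core or its reverse complement GTAAACA in capitals. The Srebf1 stretch lies in a site called in both genotypes, at chr11:60240618-60240737. The Mlxipl stretches lie in sites called in Zmpste24 KO livers alone, at chr5:135115466-135115585 in an intron of Mlxipl and at chr5:135168964-135169083 by the start of the neighbouring gene Bcl7b. The Acaca stretches lie in sites called in WT livers alone, at chr11:84110223-84110342 upstream of the gene and at chr11:84219084-84219203 in an intron.
Srebf1, shared: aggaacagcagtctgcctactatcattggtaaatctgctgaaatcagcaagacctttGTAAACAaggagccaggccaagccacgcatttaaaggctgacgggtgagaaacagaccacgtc
Mlxipl intron, KO: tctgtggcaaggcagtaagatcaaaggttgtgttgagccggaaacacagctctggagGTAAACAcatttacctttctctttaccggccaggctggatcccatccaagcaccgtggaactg
Mlxipl window at Bcl7b, KO: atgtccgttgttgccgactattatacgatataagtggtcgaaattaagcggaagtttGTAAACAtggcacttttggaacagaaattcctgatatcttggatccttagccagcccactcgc
Acaca upstream, WT: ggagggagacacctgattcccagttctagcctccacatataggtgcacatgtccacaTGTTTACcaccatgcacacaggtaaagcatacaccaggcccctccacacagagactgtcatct
Acaca intron, WT: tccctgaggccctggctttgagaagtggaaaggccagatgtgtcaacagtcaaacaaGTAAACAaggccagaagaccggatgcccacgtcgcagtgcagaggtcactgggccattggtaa

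The lipogenic genes were more often inside lamin B1 domains in old than in young livers, and all 10 had their annotated 5′ end in a domain in old livers (62.2% of all protein-coding genes), while 5 did in young livers (36.0%). The same numbers of windows were touched by a domain, 10 in old (68.5% of all genes) and 5 in young livers (44.4%). For 5 genes the 5′ end was in an old domain and in no young one (30.5%). The wider cover in old livers was general, as old domains covered 930 Mb of the genome and young domains 466 Mb. By the percent of the window covered, 6 genes were higher in old livers by at least 10 percentage points (41.4% of all genes), 1 was lower (8.19%) and 3 did not differ. Those 3 windows, of Mlxipl, Acly and Elovl6, were the fully covered ones in young livers (21.8% of all genes), and 7 were fully covered in old livers (49.5%). The median cover of the 10 windows was 15.4% in young and 100% in old livers, with 0% and 98.2% over all genes. These medians do not give the change of a typical gene. The median of the old minus young difference was 78.6 percentage points for the 10 windows and 0 over all genes. Mean cover was 41.1% in young and 93.2% in old livers for the 10 windows, and 34.7% and 61.1% over all genes.

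The transcription factor genes of the pathway differed from each other in young livers. Srebf1, on chromosome 11 from 60199089 to 60222581 on the minus strand, had 0% of its window in a young domain, and the nearest young domain was 167 kb from the gene. In old livers 100% of the window lay in a domain of 1790 kb, from 58770001 to 60560000, which holds the start sites of 49 protein-coding genes. Mlxipl, found on the plus strand of chromosome 5 between 135089890 and 135138382, was covered to 100% at both ages. Its young domain was 690 kb long, and the old domain around it was 3240 kb long.

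Among the enzymes that make palmitate, Fasn had the same pattern as Srebf1 and Acly that of Mlxipl, while Acaca was the exception of the whole group. Fasn, on chromosome 11 from 120805846 to 120824547 on the minus strand, had 0% of its window in a young domain and 100% in an old one. That old domain, from 115050001 to 121850000, is 6800 kb long and holds 180 protein-coding start sites, while the nearest young domain was only 55.8 kb from the gene. Acly, on chromosome 11 from 100476353 to 100528000 on the minus strand, was covered to 100% at both ages, by a young domain of 340 kb and an old domain of 3590 kb.

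Acaca, found on the plus strand of chromosome 11 between 84129672 and 84401651, was covered to 80.7% in young and 43.5% in old livers, a difference of -37.2 percentage points. Within its window of 372 kb, 210 kb were called in young livers alone, 71.7 kb in old livers alone and 90.3 kb at both ages. The stretch called in young livers alone ran through the gene body, of which the domains covered 92.0% in young and 22.8% in old livers. The 5′ end of the GENCODE gene lay in a domain at both ages, because an old domain from 83220001 to 84150000 reaches it. The start site in the RefSeq table, at 84195438, lies farther into the gene, and it was in the young domain and in no old domain.

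Me1, which supplies NADPH, was partly covered in young livers. It lies on chromosome 9 from 86581371 to 86695953 on the minus strand, and its cover was 30.7% in young and 96.0% in old livers. The young domain, from 86680001 to 86860000, took in the 5′ end and 16.0 kb of the gene body, and the old domain, from 86540001 to 86880000, took in all of the gene body.

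Of the genes that modify and esterify fatty acids, Elovl6 was in a young domain and the others in none. Scd1, on chromosome 19 from 44394455 to 44407879, Dgat2, on chromosome 7 from 99153658 to 99182719, and Gpam, on chromosome 19 from 55067268 to 55127238, all on the minus strand, had 0% in young domains. In old livers the cover was 100% for Scd1, 100% for Dgat2 and 92.0% for Gpam. The nearest young domain was 892 kb from Scd1, 277 kb from Dgat2 and 907 kb from Gpam. Elovl6, found on the plus strand of chromosome 3 between 129532355 and 129638495, was covered to 100% at both ages, and its young domain of 1060 kb and its old domain of 1140 kb share their start at 129130001. Counted in another way, chosen after the values were seen, 4 genes (Srebf1, Fasn, Scd1 and Dgat2) had no cover in young and full cover in old livers, as did 19.1% of all genes.

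**Figure D1:**
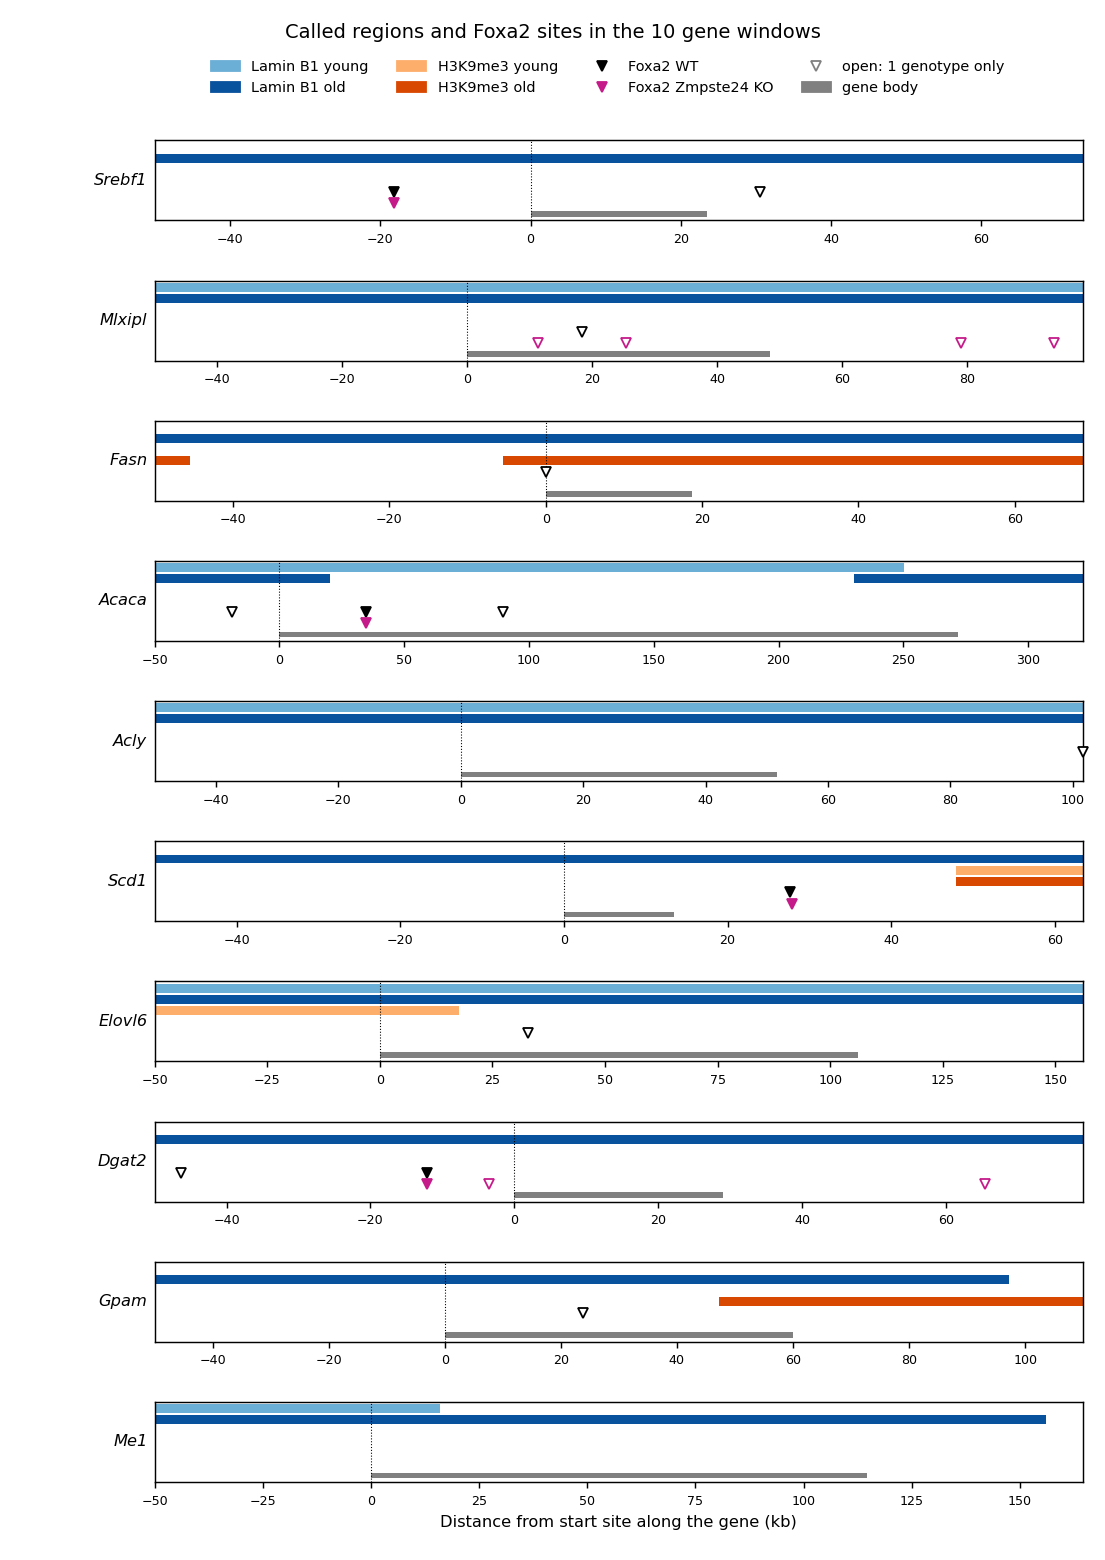
Called regions in the windows of the 10 genes, drawn by distance from the annotated start site in kb along the direction of transcription. Bars show lamin B1 domains and H3K9me3 regions at each age, triangles show Foxa2 sites of each genotype (filled where the sites of both genotypes overlap), and the grey bar is the gene body. The old lamin B1 bar crosses the start site in all 10 windows, and in Acaca it leaves most of the gene body uncovered.

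**Figure D2:**
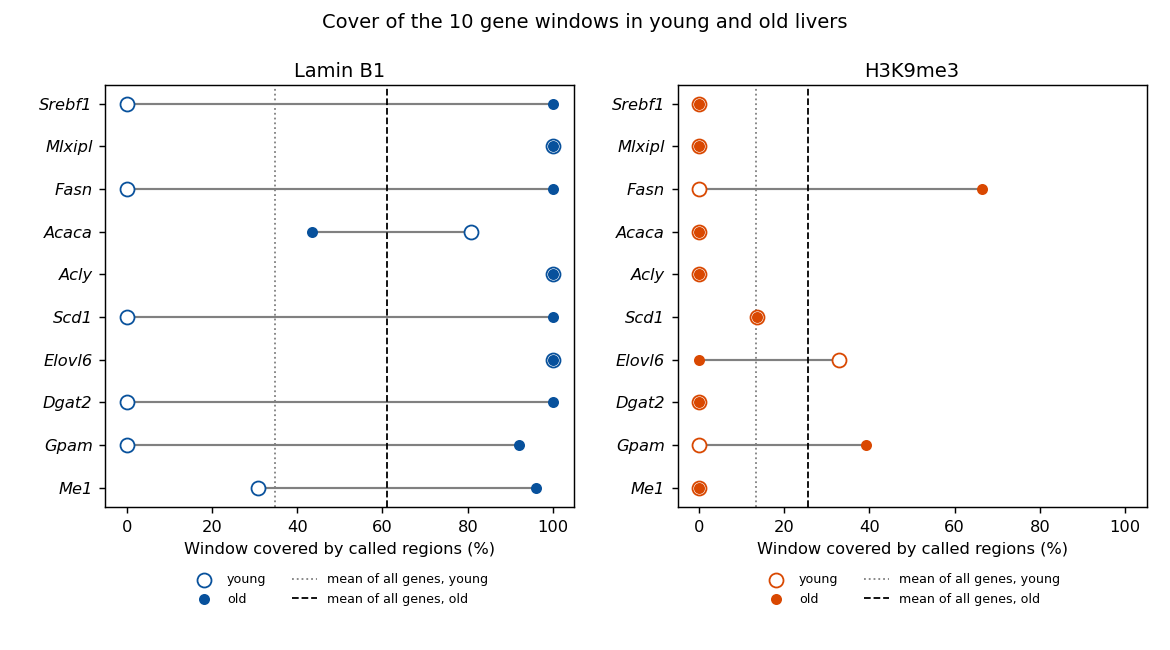
Percent of each gene's window covered by lamin B1 domains (left) and H3K9me3 regions (right), with young livers as open and old livers as filled circles and the means over all 21884 protein-coding genes as vertical lines. Lamin B1 cover was higher in old livers for 6 genes and lower for Acaca, and H3K9me3 was absent at both ages from 6 windows (50% of all genes).

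H3K9me3 regions touched 2 of the 10 windows in young livers (25.6% of all genes) and 3 in old livers (41.5%). The 6 windows of Srebf1, Mlxipl, Acaca, Acly, Dgat2 and Me1 had none at either age (6 genes, 50% of all genes). The median cover was 0% at both ages for the 10 windows and for all genes. The mean cover of the 10 windows was 4.65% in young and 11.9% in old livers, and over all genes it was 13.4% and 25.6%.

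By the same rule of at least 10 percentage points, H3K9me3 cover was higher in old livers for 2 genes, Fasn and Gpam (29.6% of all genes), and lower for 1, Elovl6 (11.0%). The cover of the Fasn window was 0% in young and 66.3% in old livers. An old region from 120690001 to 120830000 contains the whole Fasn gene, while the nearest young region was 915 kb away. Fasn was thereby the only one of the 10 genes with its start site in an old H3K9me3 region (24.3% of all genes), and that site was in no young region (17.3%). The cover of the Gpam window was 0% in young and 39.2% in old livers, from an old region that ends at 55080000 and so covers the last 12.7 kb of the gene and the sequence beyond it, while the start site was outside. The cover of the Elovl6 window was 32.8% in young and 0% in old livers. Its young region, from 129280001 to 129550000, takes in 17.6 kb of the gene body and the start site, the only one of the 10 in a young region (12.9% of all genes), and the nearest old region was 122 kb from the gene. The Scd1 window was touched at both ages by a region that ends at 44360000, 34.5 kb beyond the 3′ end of the gene, and its cover was 13.7% in each. In Fasn and Gpam the cover of both lamin B1 and H3K9me3 was higher in old livers, and in Elovl6 lamin B1 covered the window at both ages. The share of all genes with both gains was not computed.

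Foxa2 sites were present in the windows of nearly all of the 10 genes in WT livers. A WT site was called in 9 windows (30.5% of all genes), the exception being Me1, and a Zmpste24 KO site in 5 (38.5%). With 10 kb on both sides, 6 genes had a WT site and 3 a KO site. Among sites whose closest start site was that of the gene, 7 genes had a WT site and 5 a KO site. No share of all genes was set beside these 2 alternatives. In number, 13 WT and 10 KO sites fell in the windows, a ratio of KO to WT of 0.769. This ratio was 1.65 for the whole lists, in which 8177 sites were called in KO and 4960 in WT livers, and 1.33 for the windows of all genes, where a site counts once for each window it falls in. The density was 7.48 WT sites and 5.76 KO sites per Mb of these windows, and 3.02 and 4.0 per Mb over the windows of all genes. The 10 windows are longer than the average, with a median of 150 kb beside 117 kb for all genes.

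More WT than KO sites were found in 6 windows (15.4% of all genes) and more KO than WT sites in 2 (25%). Fasn, Acly, Elovl6 and Gpam had a WT site and no KO site (4 genes, 11.3% of all genes), and no window had a KO site without a WT site (19.3% of all genes). Counted by overlap of at least 1 bp, 4 of the WT sites were shared with KO livers, 9 were called in WT alone and 6 in KO alone. The shared sites made up 30.8% of the WT sites in these windows, as they did over the windows of all genes (30.8%), and 40.0% of the KO sites, where the windows of all genes had 23.7%. The 4 shared sites lay in 4 windows (10.9% of all genes), those of Srebf1, Acaca, Scd1 and Dgat2. The median width of the sites in these windows was 538 bp in WT and 687 bp in KO livers, beside 941 bp and 889 bp in the whole lists. When only sites wider than the median of their list were used, 3 genes had a WT site and 2 a KO site. No share of all genes was set beside these filtered counts.

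Of the regulators, Srebf1 had an upstream site in both genotypes while Mlxipl had no shared site. The shared Srebf1 site lay at 60240497 to 60240872 in WT and 60240500 to 60240937 in KO livers, 18.1 kb upstream of the start, over an annotated exon of the neighbour Tom1l2, and it holds the forkhead core printed above. A second WT site, from 60191283 to 60192827, lay 30.5 kb downstream of the start over an exon of Rai1. At Mlxipl, 1 WT site was called in an intron from 135107843 to 135108553, 1.31 kb downstream of the second start site that RefSeq lists for this gene, at 135106891. The KO list had 4 other sites in that window, the most of any of the 10 genes. Those from 135100991 to 135101279 and from 135114987 to 135115675 lay in introns of Mlxipl, while the others were nearer to the starts of Bcl7b (0.589 kb) and Baz1b (3.47 kb).

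Fasn was the only one of the 10 genes with a Foxa2 site on its start site. The WT site, from 120824189 to 120824780, was centred 0.062 kb inside the gene, and the nearest KO site was 156 kb from the gene. Its sequence is rich in G and C (73.8%) and lacks the forkhead core. The promoter it overlaps is printed from the RefSeq table, from 250 bases before to 50 bases after the start at chr11:120824498-120824797 on the minus strand of GRCm38.p6, 5′ to 3′ along the gene, with CCAAT (the word bound by NF-Y) and its reverse complement ATTGG in capitals.
Fasn promoter: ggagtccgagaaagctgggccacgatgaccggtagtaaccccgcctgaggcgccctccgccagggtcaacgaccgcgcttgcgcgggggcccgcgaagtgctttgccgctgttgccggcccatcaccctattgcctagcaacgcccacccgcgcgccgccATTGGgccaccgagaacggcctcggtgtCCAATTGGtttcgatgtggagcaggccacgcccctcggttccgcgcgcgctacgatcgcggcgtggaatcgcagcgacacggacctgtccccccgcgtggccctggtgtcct
CCAAT matched 3 times in it, counting both strands, and the last 2 matches overlap within CCAATTGG. The 10 windows held 23 sites when those of both lists were added, so that shared sites count in each list. This WT site of Fasn was the only one that lay in an H3K9me3 region, the one called over Fasn in old livers. Of the whole lists, 32.2% of the WT and 34.1% of the KO sites lay in an H3K9me3 region of either age. These shares were not corrected for the lower H3K9me3 cover of the 10 windows, with a mean of 11.9% in old livers beside 25.6% over all genes.

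At Acaca, 3 WT sites and 1 KO site were called. The site from 84164171 to 84164652 in WT and from 84163962 to 84164508 in KO livers was shared, 34.7 kb into the gene by the WT midpoint. It lies over an annotated exon of Gm11437, whose start site was the nearest, 3.06 kb from the WT midpoint. The sites called in WT alone lay upstream in Tada2a, at -19.2 kb from the start, and in an intron of Acaca, 89.5 kb downstream of the start, and each holds a forkhead core. Both the shared site and the intronic WT site fell in the stretch of Acaca that was in a lamin B1 domain in young livers and in none in old livers. Acly had a single WT site, from 100425735 to 100426971, which straddles the edge of the window 102 kb downstream of the start, within Nt5c3b. The nearest start site to it is that of Fkbp10, and the nearest KO site was 145 kb from Acly. Me1 had no site of either genotype in its window, and the nearest were 104 kb away in WT and 170 kb away in KO livers.

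For the enzymes that modify and esterify fatty acids, the sites all lay outside annotated exons. Scd1 had 1 intergenic site shared by the genotypes, 27.6 kb downstream of its start by the WT midpoint, where 269 bp of the WT site (from 44380115 to 44380415) and the KO site (from 44379699 to 44380383) overlap. The Elovl6 window had 1 WT site, from 129564818 to 129565603 in an intron 32.9 kb downstream of the start, and the nearest KO site was 103 kb from the gene. Gpam had 1 WT site in an intron, from 55103203 to 55103668, which lies upstream of the second Gpam start site of RefSeq (55099477), at -3.96 kb from it, and the nearest KO site was 65.2 kb from the gene.

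Dgat2 had sites of both kinds. The site 12.1 kb upstream of its start was shared, and the WT site, from 99194544 to 99195081, lay wholly inside the wider KO site, from 99194005 to 99195698. KO livers had a further site only 3.48 kb upstream of the start, from 99185730 to 99186669, and another in Uvrag, 65.5 kb downstream. The second WT site lay upstream in Mogat2, at -46.3 kb. Of all the KO sites in these windows, the intergenic one 3.48 kb from Dgat2 was the nearest to the annotated start of a lipogenic gene.

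**Figure D3:**
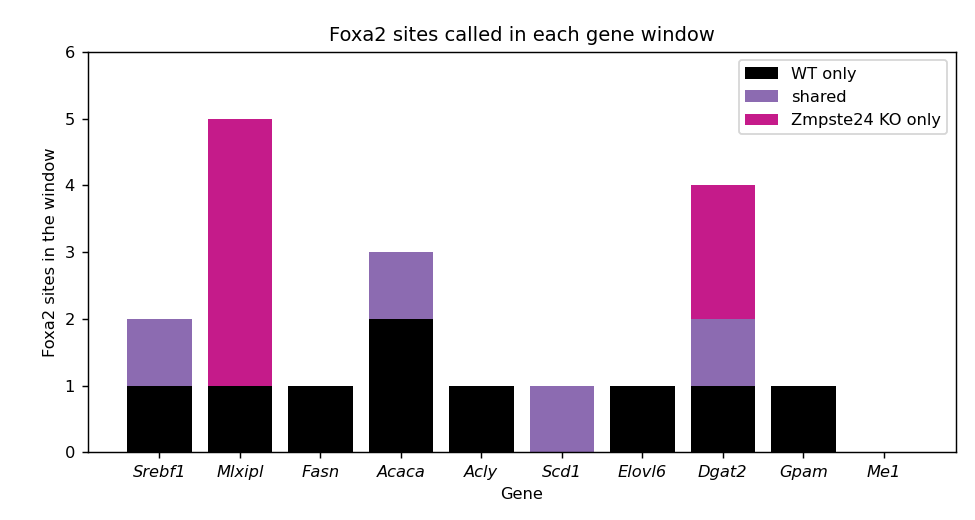
Number of Foxa2 sites in the window of each gene, stacked as sites called in WT alone, sites of both genotypes that overlap and sites called in Zmpste24 KO alone. Sites called in KO alone occurred at Mlxipl (4) and Dgat2 (2), and Me1 had no site.

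The forkhead core was present in 3 of the 13 WT sites (23.1%) and 3 of the 10 KO sites (30.0%). Over the whole lists the shares were 27.7% and 23.4%. The count was also made with 3 variants of the core, namely TATTTAC and, with another base changed, TGTTGAC, and TATTGAC with both changes. With any of these 4 words, 7 of the 13 WT and 5 of the 10 KO sites matched, and in the whole lists 58.7% and 54.4%. Old lamin B1 domains contained the midpoints of 11 WT and 9 KO sites (63.5% and 49.2% of the whole lists). The exceptions were the shared Acaca site, in each genotype, and the WT site in the Acaca intron. Young domains contained 6 WT and 5 KO sites, where the whole lists had 35.5% and 28.0%. The 10 windows themselves had a mean cover of 93.2% by old and 41.1% by young domains. The counts of sites in domains were not corrected for that cover.

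The 28 other genes of the pathway, which include the partners of the SREBPs, fatty acid desaturases, enzymes of NADPH supply and glycolysis, and enzymes of triglyceride synthesis, were also more often in lamin B1 domains in old livers. Their start sites lay in domains in 11 cases in young livers (36.0% of all genes) and in 25 in old livers (62.2%), and the exceptions in old livers were the 3 genes on the X chromosome (G6pdx, Mid1ip1 and Mbtps2), where the lists hold 2 young domains and 1 old domain. Cover was higher in old livers by at least 10 percentage points for 19 genes (41.4% of all genes) and lower for 0 (8.19%). The largest gain was shared by 13 genes with 0% in young and 100% in old livers, and the one loss was that of Acss2, an acetyl-CoA synthetase, with 100% and 98.8%. Of these 28 windows, 10 had a Foxa2 WT site (30.5% of all genes) and 13 a KO site (38.5%), with 13 sites in WT and 21 in KO livers. Insig2, which retains the SREBP complex in the endoplasmic reticulum, had the most sites when both lists were added, with 1 in WT and 3 in KO livers. Fads2, a desaturase, had 3 WT sites and 0 KO sites, Srebf2 0 and 3, and Lpin1, a phosphatidate phosphatase, 1 and 2. The WT sites of Insig2 and Lpin1 overlap a KO site, so they are counted in both lists.

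**Figure D4:**
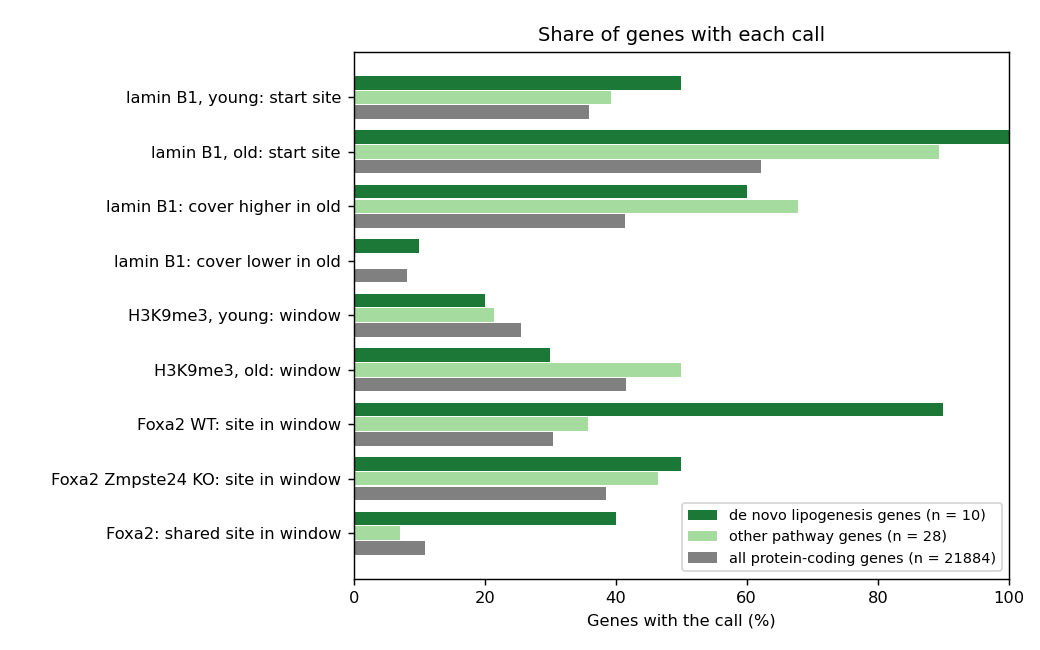
Percent of genes with each call among the 10 de novo lipogenesis genes, the 28 other genes of the pathway and all 21884 protein-coding genes. A start site in an old lamin B1 domain was called for 10 of 10 and 25 of 28 genes, and a WT Foxa2 site for 9 of 10 and 10 of 28.

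The windows differed in base composition and gene density. Their median GC content was 47.0%, from 42.0% at Acaca to 51.5% at Srebf1, beside a median of 44.3% for all genes. Acaca (42.0%) and Me1 (42.2%) had the lowest values, and they were also the windows that domains covered in part in young livers. The median number of protein-coding start sites per Mb was 12.2, from 4.85 at Elovl6 to 47.1 at Mlxipl, beside 24.7 for all genes. The study lists more aligned H3K9me3 reads for old than for young livers, and fewer aligned lamin B1 reads. The part that base composition, gene density and sequencing depth have in the calls was not tested.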

How the data were processed

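ChIP-Seq of mouse liver was analysed from 6 lists of called regions. Per the study's methods, BWA alignment to mm10 was followed by removal of duplicate and multiply aligned reads, and replicates were pooled. Epic, run in windows of 10 kb, gave the lamin B1 domains. PeakSeq gave the Foxa2 sites against input chromatin, with the KO library thinned to the depth of the WT library. For H3K9me3 the caller is not given in the methods, and SICER is among the tools in the submitters' processing notes. The deposited values are positions, with no signal, score or depth. H3K9me2 was not analysed here.

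Positions were read as starting from 0 and are given with the first base as 1. The deposited ends of lamin B1 and H3K9me3 regions fall 1 base short of a multiple of 10 kb and were extended by that base. Gene bodies and 5′ ends came from GENCODE vM21, without symbols that occur more than once, and sequence from GRCm38.p6. Promoters of RefSeq (GRCm38.p6) were matched by symbol for 8 of the 10 genes. A window counted as touched at an overlap of 1 bp, and cover as different at 10 percentage points. Words were searched on both strands. Overlap and word code was tested on simulated regions. Python 3.11.15, numpy 2.4.6, pandas 2.3.3 and matplotlib 3.10.9 were used.

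All 10 genes are described. Of the other pathway genes, those with the largest gain and loss of lamin B1 cover and the most Foxa2 sites were to be named. The plan set no rule for ties. Genes tied for the largest gain are given as a count, and genes tied in Foxa2 sites are named. The genes, lists and thresholds were chosen with earlier results of these data known. No test was run, since each condition is a single merged list.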

Additional observations from a re-analysis of the deposited data

How the results depend on the processing

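Replicates could not be left out in turn, and regions could not be ranked, since scores and single replicates are not in the lists used here. No paired analysis was possible because the replicates were merged before regions were called. Of 65 alternative values, 53 stayed within 1.5 times the reported count. No share of all genes was set beside the alternative values. With windows of 10 kb on both sides, H3K9me3 touched 1 gene in young livers, and 6 genes had a WT and 3 a KO site. In those windows 3 sites were called in KO alone and 1 WT site was shared. Among sites wider than the median of their list, 3 genes had a WT and 2 a KO site, with 3 sites called in WT alone, 3 in KO alone and 0 shared. When sharing required 50% of both sites to overlap, 2 sites were shared. The forkhead core matched in 7 WT and 5 KO sites when 4 words were allowed. Each of these alternatives changes by construction the bases searched, the sites used, the rule of overlap or the words allowed, and the cause of the differences was not tested further. The lamin B1 counts stayed within 1.5 times under windows of 10 and 100 kb, regions of at least 50 kb, an overlap of 10 kb and a difference of 25 percentage points. By the start sites of RefSeq, an alternative chosen after the data were seen, 7 of 8 genes had all their starts in an old domain, the exception being Acaca.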

Other observations

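In the RefSeq promoters (250 bases before to 50 bases after the start), 13 promoters of 8 of the genes were searched, all but Scd1 and Dgat2. CCAAT, the word of NF-Y, matched in 7 of the 13, from 6 genes, and in 37.4% of all 32851 promoters. TCACNCCAC, a word of the SREBPs, matched in 1, that of the second Mlxipl start, and in 1.24% of all promoters. The E-box CACGTG matched in 1, at the first Mlxipl start, and in 7.15% of all. TGTTTAC matched in 1, that of Elovl6, and in 3.65% of all. A match describes the letters and not a bound site.

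H3K9me3 around the 28 other pathway genes touched 6 windows in young livers (25.6% of all genes) and 14 in old livers (41.5%). Cover was higher in old livers by at least 10 percentage points for 12 of the 28 (29.6% of all genes) and lower for 2 (11.0%). The window of Nr1h2, which encodes LXRβ, was covered to 0% in young and 100% in old livers. The window of Scd2, the neighbour of Scd1, was covered to 100% at both ages. Nr1h2 and Scd2 were chosen after their values were seen.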
